A study of Mus musculus with 3 samples.

Results

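The genes described are 9 complement genes, C1qa, C1qb, C1qc, C2, C3, C4b, C6, C7 and Cfb, taken as the probe sets whose mouse gene symbol is one of these names, out of 25206 probe sets on the array. All 9 were measured, each by 1 probe set. They cover components of the classical, alternative and terminal pathways, and none of the 9 is a regulator. The other 47 complement genes measured, regulators and receptors among them, were therefore read beside them by role.

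RNA came from left ventricles of C57BL/6N mice, male and 8 to 12 weeks old, taken at day 14 and measured on 3 arrays. Mice of the Control array carried an osmotic pump filled with the ammonium bicarbonate vehicle (pH 8.5) and were injected with saline. Those of the Iso array had the same vehicle pump and were injected intraperitoneally with isoproterenol, a beta-adrenergic agonist that injures the heart, at 50 mg/kg per day for 11 days. Those of the Iso+Insl6 array received the same isoproterenol while the pump infused INSL6, a relaxin-like peptide related to insulin, subcutaneously at 50 to 70 nmol/kg daily. Since 3 RNA samples were pooled for each array and each group has 1 array, no spread between mice can be seen. No difference below has an error or a replicate check, and no p-value is given.

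Complement is a cascade of plasma proteins that tags surfaces for removal and calls in inflammatory cells. The classical pathway starts when C1q binds antibody or altered surfaces and the C1 proteases cut C4 and C2; the alternative pathway turns over through C3 and factor B; both converge on C3. Cleaved C5 then gathers C6, C7, C8 and C9 into the membrane attack complex. Most components are secreted by hepatocytes, whereas C1q comes mainly from macrophages and dendritic cells, and several components are also made by fibroblasts and other cells within tissues.

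Values are log2 levels, so a difference of 1 is 2-fold. A level below 4.16, the median of all values, was read as below background. A gene was called different when its difference reached 1.5-fold (0.585 on the log2 scale) and its higher array lay at or above background. Where the lower array lay below background, the fold is given as a bound against 4.16. Levels are compared within a gene only, since probe sets differ in brightness. On 51.3% of all probe sets the 3 arrays carried exactly the same deposited value, so an equal value is common on these arrays and does not show that the animals were alike.

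The arrays matched their labelled tissue. All 10 ventricular cardiomyocyte markers stood at 10.63 or above on every array, with Myh6 at 11.91, 11.91 and 11.93. Markers of hepatocytes, a cell type foreign to the ventricle, were also present and differed between arrays. Of 20 hepatocyte markers 17 lay at or above background on Control, 16 on Iso and 20 on Iso+Insl6. Their summed linear level was 1500 on Control, 1392.9 on Iso and 6571.3 on Iso+Insl6, and albumin, Alb, stood at 8.78, 8.97 and 11.12. None of the 7 neutrophil markers reached background on any array. Only 1 of 6 mesothelial markers and 2 of 7 adipocyte markers did, and Adipoq, which defines adipocytes, stood at 2.36 or below.

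The classical pathway's recognition genes were the steadiest of the 9 across the arrays. C1qa, the A chain of C1q, read 6.18 on Control, 6.18 on Iso and 6.18 on Iso+Insl6. C1qc, the C chain, read 6.31, 6.31 and 6.31 in the same order. C1qb, the B chain, read 7.49, 7.46 and 7.42. No array stood apart for any chain, and the widest gap was that of C1qb, -0.07 between Iso+Insl6 and Control. The 3 genes lie next to each other on mouse chromosome 4 with no other protein-coding gene between them in RefSeq's order (GRCm38.p6). All 12 macrophage markers measured lay above background on every array, with a summed linear level of 839.4, 875.1 and 888.5. Adgre1, the F4/80 antigen, read 4.93 on all 3 arrays and Csf1r 6.42. Lgals3 was called higher on Iso than on Control (5.58, 6.29 and 6.45), the one macrophage marker called, and Ccr2 read 4.34, 4.84 and 4.84. In a bulk sample, fewer cells of a type and less RNA per cell cannot be told apart.

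The genes that act just after C1q differed little at levels that could be read. C4b, which encodes the C4 that C1s cuts, read 4.85 on Control, 4.83 on Iso and 5.01 on Iso+Insl6, with the highest value on Iso+Insl6 by 0.18 over Iso. Its near-identical copy C4a lay below background throughout, at 2.37 to 2.50, and whether probes of one copy also bind the other's RNA was not tested. C2, the protease that joins C4b in the C3 convertase, read 2.48, 1.99 and 2.79. Its listed values were lowest on Iso and highest on Iso+Insl6, by 0.80, but all lay below background, so no fold is given. C2 could not be called under the filter on level, and entered only the counts and medians by listed value.

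C3, the protein on which all activation routes converge, read 8.44 on Control, 8.12 on Iso and 8.97 on Iso+Insl6. The Iso array was the lowest and the Iso+Insl6 array the highest. Against Control, Iso was 1.25-fold lower (-0.32), short of a call. Iso+Insl6 was 1.80-fold higher than Iso (0.85) and 1.44-fold higher than Control (0.53). Of the 12457 genes at or above background in the second comparison, 1.08% had a larger difference than C3. Its neighbours in gene order did not share this, with Trip10 at 7.45, 7.55 and 7.65 and Tnfsf14 below background at 2.22, 2.35 and 2.35. The 250 bases before the start of C3 are shown because C3 was the one member called with every level above background. They lie at chr17:57228137-57228386 on the minus strand (RefSeq, GRCm38.p6), printed 5′ to 3′ up to the start, with a match to the C/EBP motif in capitals, 45 to 38 bases before the start.
C3: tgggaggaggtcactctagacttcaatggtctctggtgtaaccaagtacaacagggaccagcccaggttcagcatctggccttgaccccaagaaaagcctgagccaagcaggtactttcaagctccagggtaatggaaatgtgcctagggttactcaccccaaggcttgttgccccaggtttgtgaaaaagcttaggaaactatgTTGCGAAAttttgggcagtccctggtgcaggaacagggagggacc
The C/EBP motif was searched as TTGCNNAA, and 9.56% of the 32851 windows of the same length held it. The other motifs, for which C3's window held no match on either strand, were the NF-kB consensus, the STAT-binding GAS element written as TTCNNNGAA, the macrophage factor PU.1 as GAGGAAG, the glucocorticoid receptor element as ACANNNTGT, the cAMP response element of CREB as TGACGTCA, and the TATA box as TATAAA. The motifs overlap at no base of the windows shown. A match is a description of the letters only.

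Cfb, the factor B protease that pairs with C3b in the alternative pathway, read 4.14 on Control, 4.14 on Iso and 4.41 on Iso+Insl6. Control and Iso lay just below background and Iso+Insl6 just above it, a listed difference of 0.27. Cfb and C2, which are related genes and neighbours on chromosome 17, were both highest on Iso+Insl6 by listed value, but C2 lay below background on every array. The genes flanking this pair did not share the order, with Nelfe at 4.93 on every array and Zbtb12 at 4.60, 4.62 and 4.60. The other alternative pathway genes gave the same value on each array: properdin, Cfp, at 4.84 and factor D, Cfd, below background at 3.83.

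Of the terminal pathway genes among the 9, C6 and C7 were both lowest on Iso and differed in where Iso+Insl6 stood against Control. C6, which binds C5b, read 4.23 on Control, 3.71 on Iso and 4.58 on Iso+Insl6. Iso was the lowest and lay below background, and Iso+Insl6 was the highest. C6 was lower on Iso than on Control by a listed -0.52, short of a call, and higher on Iso+Insl6 than on Iso by 0.87, at least 1.34-fold against background. That bound is under 1.5-fold, so the call for C6 rests on a level that could not be read on Iso. C7, which anchors the growing complex in the membrane, read 6.92, 6.59 and 6.75. It was lowest on Iso (-0.33 against Control) and stood between the others on Iso+Insl6 (0.16 above Iso, -0.17 against Control), so C7 alone among C3, C6 and C7 did not end above its Control level.

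C6 and C7 are related genes that lie near each other on chromosome 15, with Mroh2b, below background at 2.44 on every array, next to both. Their windows of 250 bases before the start are shown side by side because Iso+Insl6 stood above Control for C6 (0.35) and below it for C7 (-0.17). Neither difference was called, and each rests on 1 array per group. C6 lies at chr15:4726960-4727209 on the plus strand and C7 at chr15:5063774-5064023 on the minus strand (RefSeq, GRCm38.p6), both printed 5′ to 3′ up to the start, with matches to any of the motifs named above in capitals.
C6: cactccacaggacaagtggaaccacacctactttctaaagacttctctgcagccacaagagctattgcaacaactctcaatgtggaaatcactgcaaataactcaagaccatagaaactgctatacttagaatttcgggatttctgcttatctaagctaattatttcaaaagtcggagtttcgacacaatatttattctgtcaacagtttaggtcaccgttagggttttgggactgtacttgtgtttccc
C7: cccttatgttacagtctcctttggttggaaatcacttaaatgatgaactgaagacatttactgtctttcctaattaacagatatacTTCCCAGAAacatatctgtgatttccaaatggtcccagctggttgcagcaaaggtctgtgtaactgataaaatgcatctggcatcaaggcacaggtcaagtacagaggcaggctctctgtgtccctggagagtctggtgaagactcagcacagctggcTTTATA
C6 held no match to any of the 7 motifs searched. C7 held a GAS match 164 to 156 bases before the start and a TATA box match on the minus strand 6 to 1 bases before it, motifs held by 7.02% and 12.4% of all windows. RefSeq's promoter table also held C1qb and C1qc, and not C1qa, C2, C4b and Cfb. C1qb's window had no match, and C1qc's had an NF-kB match 41 to 32 bases and a PU.1 match 194 to 188 bases before the start, held by 7.25% and 10.6% of windows.

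**Figure D1:**
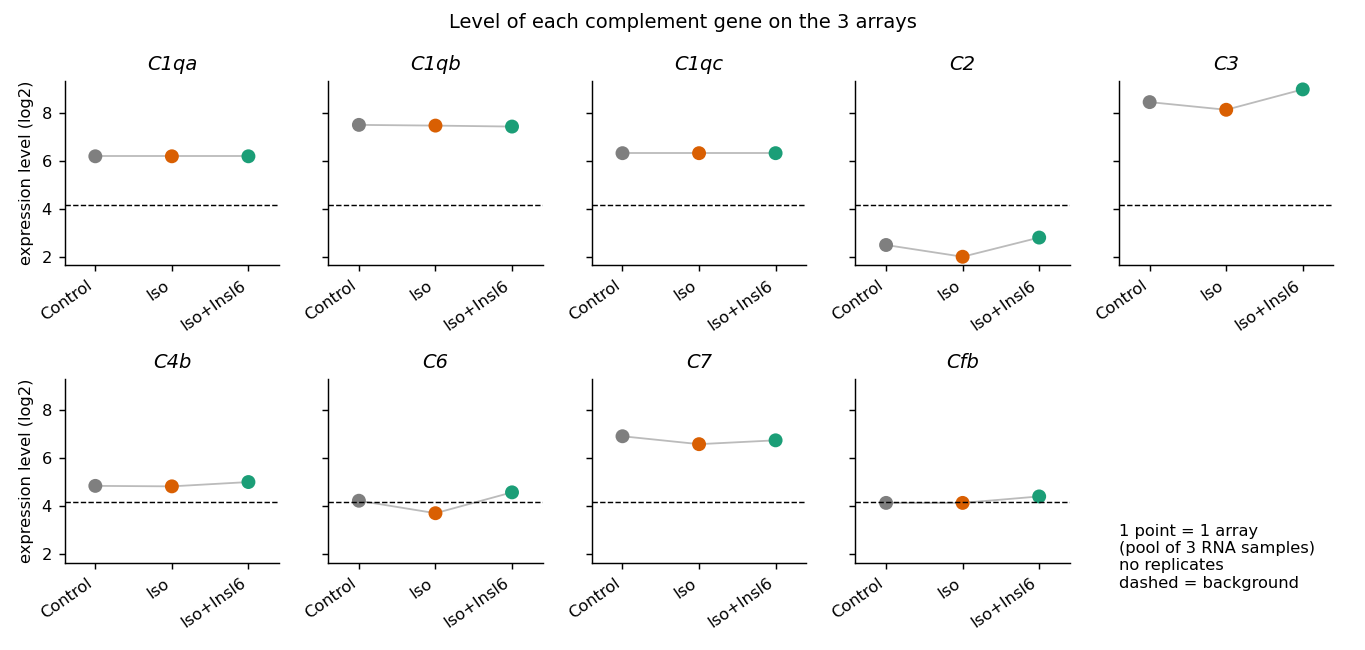
Log2 expression level (vertical axis) of each of the 9 complement genes by array (horizontal axis: Control, Iso, Iso+Insl6). Each point is 1 array, there are no error bars because there are no replicates, and the dashed line is the background of 4.16. C1qa, C1qb and C1qc are level, and C3 and C6 dip on Iso and stand highest on Iso+Insl6 (8.97 and 4.58). C6 lies below background on Iso (3.71), Cfb on Control and Iso, and C2 throughout.

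The first comparison, Iso against Control, addresses the response of the ventricle to isoproterenol. None of the 9 genes was called, 7 of which lay at or above background on an array compared, against 1.88% of 12415 genes called over the whole array in either direction, 1.03% lower and 0.846% higher. By listed value 6 of the 9 were lower on Iso, 3 were equal and none was higher, with a median difference of -0.03 against 0.00 over all genes. The lowest were C6 (-0.52), C2 (-0.49), C7 (-0.33) and C3 (-0.32). Of the genes tested, 3.22% had a lower difference than C7 and 3.39% than C3, while 52.9% had a difference of exactly 0. C7 was 1.26-fold and C3 1.25-fold lower. C6 lay below background on Iso and C2 on both arrays, so their listed differences have no place in that order. None of the 47 other complement genes was called either, 24 of which could be tested.

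By role, the listed differences on Iso ran both ways. In the terminal pathway, C6 and C7 included, 6 of 7 listed values were lower on Iso and C8b's was equal, but 1 of the 7, C7, could be read on Iso and none was called. C9, whose copies form the pore, was lower by a listed -0.49 and Hc, which encodes C5, by -0.40, both at or below background. In the lectin pathway the protease gene Masp1 had the largest upward difference of all complement genes, 0.49 (5.29 on Control, 5.78 on Iso and 5.78 on Iso+Insl6). Among well expressed regulators, Clu read 10.91, 10.86 and 10.91 and the C1 inhibitor Serping1 read 8.89, 8.93 and 9.13. Of the 20 hepatocyte markers 17 could be tested on Iso against Control. Of these 5 were called lower, with Fgg at -0.90, and none higher, against 1.03% lower and 0.846% higher over all genes. The part of hepatocyte RNA in the lower listed terminal pathway values was not tested.

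The second comparison, Iso+Insl6 against Iso, addresses what infused INSL6 adds to isoproterenol. C3 and C6 were called higher and none of the 9 lower, 8 of which could be tested. Over all genes 1.49% of 12457 were called higher, 0.506% lower and 1.99% in either direction. By listed value 6 of the 9 were higher on Iso+Insl6, with a median of 0.18 against 0.00 over all genes: C6 (0.87), C3 (0.85), C2 (0.80, below background), Cfb (0.27), C4b (0.18) and C7 (0.16). C1qa and C1qc were equal and C1qb was lower by -0.04. C3 lay beyond 98.9% of tested genes, C4b above 92.4% and C7 above 91.1%. Since 54.1% of tested genes had a difference of exactly 0, even small differences place high. C4b was 1.13-fold and C7 1.12-fold higher, and neither was called. C6 and Cfb lay below background on Iso, so no place among the tested genes is given for them.

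Of the 47 other complement genes 30 could be tested. Of these 8 were called higher and 1 lower, against 1.49% and 0.506% over all genes. The median listed difference of the 47 was 0.00. Of the 8, 5 belong to the terminal pathway: C9, Hc, C8b, C8a and C8g. With the members C6 and C7, all 7 terminal genes had higher listed values on Iso+Insl6 than on Iso and 6 were called. These 6 lay below background on Iso and passed the filter through their Iso+Insl6 level, so their differences are known only as bounds. C9 read 3.67, 3.18 and 4.92, at least 1.69-fold higher than on Iso. Hc read 4.16, 3.76 and 5.12, at least 1.95-fold higher. The 3 chains of C8 were also called, with C8b at 4.08, 4.08 and 4.90 (at least 1.67-fold), C8a at 4.02, 3.75 and 4.66 (at least 1.41-fold) and C8g at 4.24, 4.03 and 4.62 (at least 1.38-fold). C8g, at a difference of 0.59, lost its call after centring on the genes above background (0.56) or after quantile normalisation (0.58). C7, the one terminal gene at or above background on both arrays, was not called.

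Fluid-phase regulators gave a like picture. All 11 measured had higher listed values on Iso+Insl6 than on Iso and 2 were called, both below background on Iso. Cpb2, a carboxypeptidase that trims the anaphylatoxins C3a and C5a, read 4.07, 4.12 and 5.43, at least 2.41-fold higher. Factor I, Cfi, which cuts C3b, read 3.72, 3.30 and 4.73, at least 1.48-fold higher. Vitronectin, Vtn, which blocks insertion of the terminal complex, read 7.07, 6.71 and 7.25, a difference of 0.54 short of a call. C4bp (0.76) passed 1.5-fold by listed value but lay below background on every array, and Clu differed by 0.05.

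In the lectin pathway Masp2, the protease that cuts C4 and C2 after mannose-binding lectin, read 3.76, 3.76 and 4.49, at least 1.26-fold higher. Mbl2, a mannose-binding lectin, was higher by 0.74 but below background at 3.30 or less. Masp1, Mbl1, Fcna, Colec10 and Colec11 had equal values on Iso and Iso+Insl6, and Fcnb was lower by -0.20, below background. Of the C1 proteases, C1rb was the one complement gene called lower, at 4.24, 4.69 and 3.95 (at least 1.44-fold), while its near-identical copy C1ra went the other way at 4.79, 4.39 and 4.71. These 2 copies may share probes, so the opposite moves are uncertain. C1s1 read 6.25, 6.25 and 6.28, as level as C1q, and its copy C1s2 lay below background.

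Genes on the receiving side did not stand higher. Of 8 receptor genes none was called, 6 were equal and 2 lower: the C3a receptor C3ar1 read 5.43, 5.43 and 5.40 and C5ar2 read 5.06, 4.94 and 4.78. The C5a receptor C5ar1 read 4.41 and the beta chain of complement receptor 3, Itgb2, 4.95 on every array. Of 8 membrane regulators none was called, 3 were lower and 5 equal. Cd55, which breaks up convertases on the cell surface, read 5.81, 5.68 and 5.13, lower on Iso+Insl6 by -0.55, and was called lower at -0.60 after quantile normalisation. Cd59a, which blocks the terminal complex, read 9.76, 9.82 and 9.56. Cr1l, the rodent convertase regulator also known as Crry, read 7.35 throughout.

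**Figure D2:**
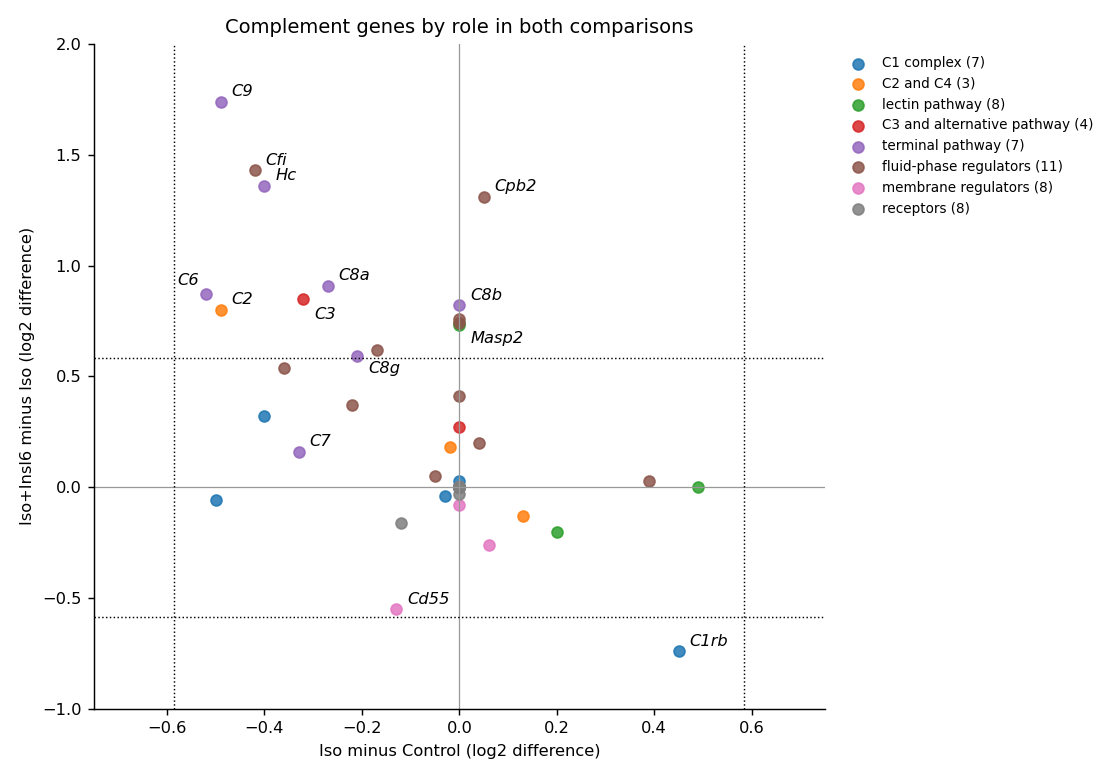
Log2 difference of Iso minus Control (horizontal axis) against Iso+Insl6 minus Iso (vertical axis) for 56 complement genes, 1 point per gene, coloured by role with the number of genes in brackets. Dotted lines mark 1.5-fold; the axes share the Iso array, so the slope between them carries no evidence. All 7 terminal pathway genes lie above 0 on the vertical axis, from C7 at 0.16 to C9 at 1.74, while receptors lie at 0 or just below.

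Hepatocyte markers differed in the same direction and further. All 20 were called higher on Iso+Insl6 than on Iso, against 1.49% over all genes. Listed differences ran from 1.40 to 3.19 with a median of 2.17, and Alb differed by 2.15. On Iso 16 of the 20 lay at or above background. Ambp, Kng1, F2 and Serpinc1 lay below it there, with bounds of 3.81-fold, 2-fold, 2.66-fold and 2.51-fold. By listed value, every complement gene called higher differed by less than the hepatocyte median, the largest being C9 at 1.74. Macrophage markers had a median of 0.00 and none of 12 was called, with Lgals3 (0.16), Cx3cr1 (-0.14), Cd68 (0.05) and Mertk (0.05) furthest from 0. Of the markers of Kupffer cells, the macrophages of liver, Clec4f, Cd5l and Marco lay below background at equal values, Timd4 read 4.33 on every array and Cd163 differed by -0.04. Of 12 fibroblast markers none was called, with a median of 0.07, Pi16 at -0.28, Postn at 0.27 and Pdgfra at 0.05. The part of hepatocyte RNA in the higher C3, C6 and other complement values was not tested.

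**Figure D3:**
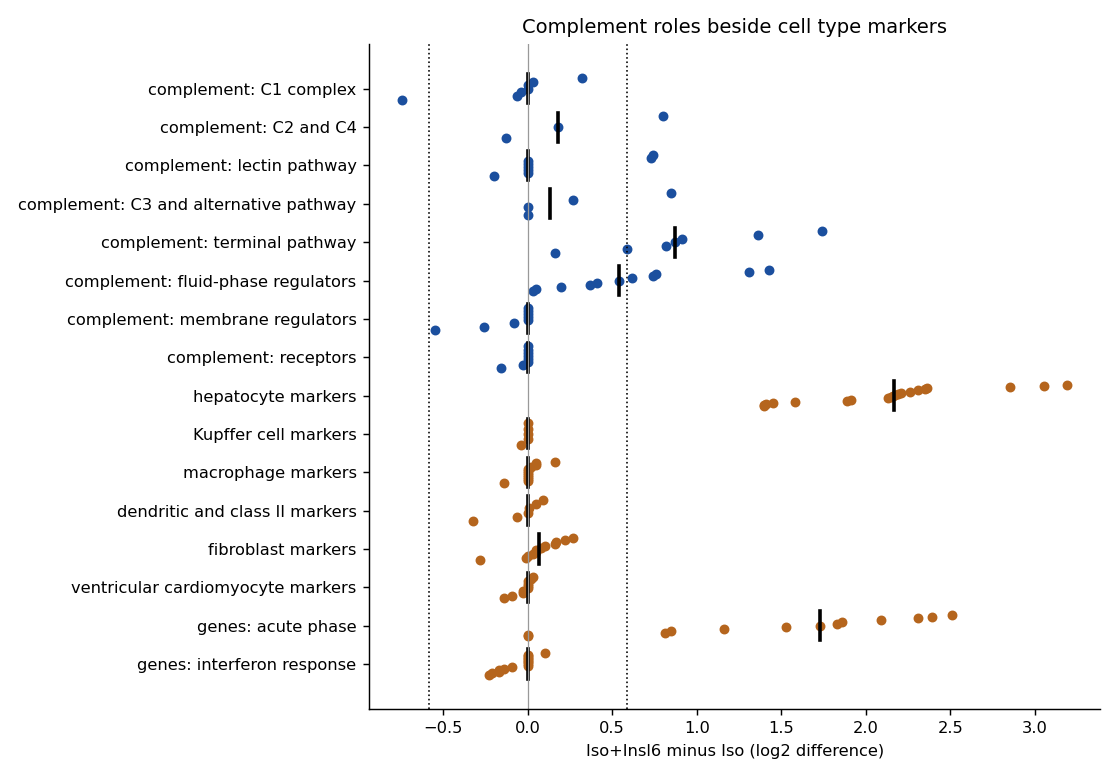
Log2 difference of Iso+Insl6 minus Iso (horizontal axis) for complement genes by role (blue) and for marker and response lists (brown), 1 point per gene, with black bars at list medians and dotted lines at 1.5-fold. Vertical spread within a row only separates the points. By listed value, with many of these genes below background on Iso, terminal pathway genes (median 0.87) and fluid-phase regulators (median 0.54) stand to the right, hepatocyte markers (median 2.17) further right, and macrophage and Kupffer cell markers at 0.

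Iso+Insl6 was also set against Control, sharing each array with the comparisons above. None of the 9 was called, 8 of which could be tested. Over the whole array 2.75% of 12420 genes were called in either direction, 1.96% higher and 0.789% lower. C3 was higher by 0.53, C6 by 0.35, Cfb by 0.27 and C4b by 0.16, C7 was lower by -0.17, and C2 was higher by 0.31 below background. Of the other complement genes 30 could be tested, and 7 were called higher and 1 lower. Hc was 1.95-fold and Cpb2 at least 2.41-fold higher, C9, C8b, Cfi, C8a and Masp2 were higher with bounds of 1.69-fold to 1.26-fold, and Cd55 was 1.60-fold lower. Hepatocyte markers were called higher here too in 20 of 20, with a median of 1.94 by listed value, and their part was not tested.

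The genes whose pattern over the 3 arrays was most like that of C3 and C6, the called members, were sought among 11436 protein-coding genes at or above background on their highest array, by the distance between their pairs of differences (Iso minus Control and Iso+Insl6 minus Iso) on the log2 scale. For C3 the nearest were lipocalin, Lcn2 (distance 0.057), Zfp873 (0.076), C8a (0.078), Ube2v2 (0.114) and Mfap1a (0.126). Lcn2 read 6.76, 6.40 and 7.21. For C6 they were Gstm3 (0.120), Ube2v2 (0.170), Lcn2 (0.171), C3 itself (0.201) and Zfp825 (0.210). No gene lay within 0.1 of C6, and 3 did of C3. C6, C8a, Zfp873 and Gstm3 lay below background on Iso, so their distances rest on listed values that could not be read there. With 3 arrays a like pattern is a description of these arrays.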

How the data were processed

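The deposited values are log2 levels for each probe set on each array. The submitters' processing notes name RMA and affy 1.36.1; the RMA settings, array type and genome build are not given in the sources used here. RMA as published summarises probes by median polish across arrays. All 3 arrays had a median of 4.16, and 0 columns were left unmatched. Probe sets carry Entrez gene numbers, and RefSeq's mouse table (GRCm38.p6) named all but 1466; the platform annotation gave 8 of the 9 members the same symbol, and C3 was named by its number alone. With 1 array per group, differences were counted by size without a test. Python 3.11.15 and pandas 2.3.3 were used, with limma 3.58.1 for quantile normalisation and cyclic loess; the counting was tested on simulated data. Promoter windows came from RefSeq's table, restricted to the 250 bases before each start. Motif matches were found by searching these windows on both strands for the letters of the 7 motifs, and are not annotated sites.

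Members, role lists and marker lists were chosen with earlier results of these data known; motifs were chosen after the values were seen. Named genes were the members, other complement genes at 1.5-fold or with the largest differences of their role, up to 4 per marker list, and the 5 nearest patterns; others were chosen after their values were seen. Of 57 complement genes listed, 56 were measured, and a few are counted but not reported here by name. The results were recomputed without a filter on level, at 2-fold, with a filter set at the 95th percentile (3.70) of 1411 olfactory, vomeronasal and keratin-associated genes, under 3 rescalings, and without hepatocyte and acute phase genes.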

Additional observations from a re-analysis of the deposited data

How the results depend on the processing

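At a 2-fold threshold none of the 9 members was called in any comparison: the count for Iso+Insl6 against Iso went from 2 to 0, and those of all complement genes from 11 to 4 there and from 8 to 3 for Iso+Insl6 against Control. Over all genes the 2-fold counts were 51 for Iso against Control, 137 for Iso+Insl6 against Iso and 152 for Iso+Insl6 against Control, from 233, 248 and 342. With no filter on level these counts were 426, 503 and 584, and C2 joined C3 and C6. These moves follow from the higher bar and from the number of genes tested. Under centring, quantile normalisation and cyclic loess, all 81 recomputed member differences stayed within a set tolerance of 0.1 of the deposited values. Each stayed on the same side of the threshold, and the largest move was 0.04. The arrays already shared a median of 4.16, so these rescalings had little to move. The tolerance does not measure the spread between mice or arrays. The 3 rescalings and the filter set on olfactory, vomeronasal and keratin-associated genes kept each count of members, complement genes and all genes within 1.5 times. Leaving out hepatocyte and acute phase genes was run for the counts over all genes alone, which became 221, 217 and 314. No paired analysis was possible because each group has 1 array. Precision is limited by the number of arrays. Of the 11 complement genes called in the second comparison, 1 lay at or above background on both arrays, 4 had bounds past 1.5-fold and 6 had bounds under it.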

Other observations

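Acute phase and interferon response genes were read beside complement, since both programs include complement genes. Acute phase genes encode proteins that liver secretes with C3 in inflammation. Of 13 listed, 11 could be tested on Iso+Insl6 against Iso, and all 11 were called higher, against 1.49% over all genes. On Iso 6 of the 13 lay at or above background. Saa1, Saa4, Orm2, Itih3 and Crp lay below it there and passed the filter through their Iso+Insl6 level. Their bounds were 4.63-fold, 2.39-fold, 1.41-fold, 1.04-fold and 1.24-fold, in that order. The median listed difference of the 13 was 1.73. On Iso against Control 9 could be tested. Of these 6 were called lower and 1 higher, against 1.03% and 0.846% over all genes. Among those called lower, Saa1, Saa4 and Orm2 lay below background on Iso, with bounds of 2.69-fold, 1.03-fold and 1.26-fold. The C1q-binding pentraxin Crp read 2.94 on Control, 2.94 on Iso and 4.47 on Iso+Insl6, while its relative Apcs stayed below background at 2.15. Serpina3n was the exception among them on Iso, with 6.30, 7.27 and 8.12. Of 15 interferon response genes none was called in any comparison: Irf1 read 5.53 and Gbp2 6.30 on every array, and Cxcl9 read 6.22, 6.15 and 5.92.

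Of the genes of antigen-presenting cells, which also make C1q, H2-Aa read 7.15, 6.40 and 6.49, called lower on Iso than on Control, and Cd74 read 7.91, 7.41 and 7.46. Their differences between Iso+Insl6 and Iso were 0.09 and 0.05, and no C1q gene was lower on Iso than on Control beyond C1qb's -0.03. None of 8 endothelial markers and none of 7 smooth muscle and pericyte markers was called in the second comparison, and both medians were 0.00.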
